A study of Homo sapiens with 6 samples.

Results

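The transcripts described here lost ribosome footprints under rocaglamide A (RocA) in both HEK293T-REx lines of the series, the naive and the aglaiacized line. They are 507 transcript models of 38543 in all, and of 20211 with a mean count of at least 100 over the 6 libraries. A transcript model is a set of deposited rows with equal counts in every library. Each model was scored in each line by the log2 ratio of its RocA level to its mean DMSO level, in CPM (counts scaled to a common library total) with 1 CPM added, minus the median over the 20211 models. These scores are called the naive response and the aglaiacized response, and a member has -1.5 or less in both. The members were thus chosen by the measured responses to RocA in both lines, so their fall under RocA is a description with no test.

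The 4 groups are naive cells given the solvent DMSO (2 libraries), naive cells given RocA (1 library), aglaiacized cells given DMSO (2 libraries) and aglaiacized cells given RocA (1 library). All libraries are ribosome profiles of HEK293T-REx cells, human embryonic kidney cells that carry the tetracycline repressor. The labels state no dose or time, and do not explain the word aglaiacized. In the study it names cells whose eIF4A1 carries residues of the plant Aglaia, which makes RocA. How that line was made, and whether it is 1 clone, is not in the labels, and nothing in them says that the DMSO replicates are separate cultures. Deposited identifiers are transcript names without gene names, and none of the members' identifiers was found in the reference gene table (GRCh38.p14). Genes, sequences and cell markers of the members are therefore not given, and only 2 identifiers are printed.

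Ribosomes usually reach a start codon after the helicase eIF4A has helped to open the 5′ leader of an mRNA. RocA clamps eIF4A onto purine-rich stretches of RNA, and a clamped helicase stands in the way of the scanning ribosome. mRNAs with such stretches before their start codon are known to lose translation under the compound, and changes in the drug's pocket on eIF4A are known to give resistance. Ribosome profiling counts the RNA fragments that ribosomes protect from nuclease. A lower count can come from less mRNA or from fewer ribosomes on each mRNA, and the 2 cannot be told apart without mRNA amounts. Likewise, fewer cells and less RNA per cell cannot be told apart in such bulk libraries. The responses used here are relative to the library total and to the median model, so a loss common to all models does not show in them.

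The 4 DMSO libraries held 18459239 to 28428267 counts over all models, and the RocA libraries 8219273 in naive and 8316797 in aglaiacized cells. Before centring, the log2 ratio of RocA to DMSO had a median over the 20211 models of -0.56 in naive and -0.24 in aglaiacized cells. A ratio of CPM values overstates a member's fall, relative to the median model, by these amounts. The DMSO pairs were close to each other. Over the members, replicate 1 over replicate 2 had an SD of 0.129 on the log2 scale in naive and 0.175 in aglaiacized cells, against 0.142 and 0.180 over the 20211 models.

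The members were ordinary in abundance without the drug and scarce with it. Their median level was 21.6 and 21.5 CPM in the naive DMSO libraries and 2.07 CPM in naive RocA. In aglaiacized cells it was 20.6 and 20.2 CPM in DMSO and 3.97 CPM in RocA. Over the 20211 models the medians were 18.1 and 18.3 CPM in naive DMSO, 12.4 CPM in naive RocA, and 17.7, 17.5 and 14.2 CPM in the aglaiacized libraries in the same order. Summed, the 507 members took 2.503% and 2.48% of all counts in naive DMSO, which fell to 0.270% with RocA. In aglaiacized cells their share was 2.33% and 2.19% in DMSO, then 0.519% with RocA. The members' total was therefore lowest in naive RocA, next lowest in aglaiacized RocA, and did not overlap the DMSO libraries of either line.

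**Figure D1:**
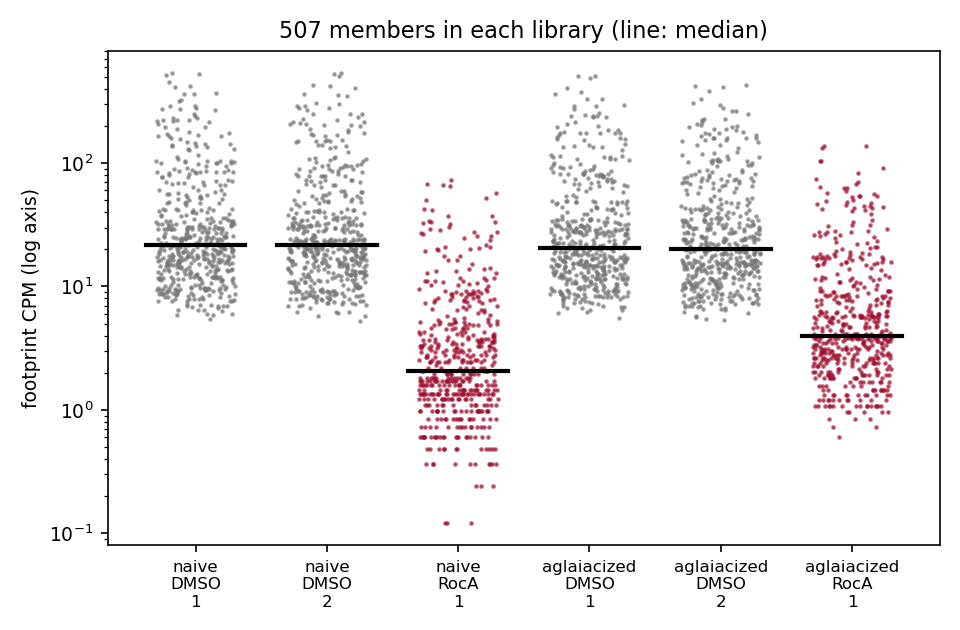
Footprint level of each of the 507 members in each library, in CPM on a log axis, with the median as a line. The medians are 21.6, 21.5 and 2.07 CPM in the naive and 20.6, 20.2 and 3.97 CPM in the aglaiacized libraries; the horizontal bands in naive RocA are small whole counts.

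Counts behind the RocA values were low for many members. The count in naive RocA ran from 1 to 601 with a median of 17, and 134 members had at most 10 counts there. In aglaiacized RocA it ran from 5 to 1141 with a median of 33, and 38 members had at most 10. No member was at 0 in any library. In DMSO the lowest count of a member was 98 in the naive libraries and 118 in the aglaiacized ones. Counting error thus sits mostly on the RocA side, and most of all in naive RocA.

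The naive response of the members reached down to -4.19 with a median of -2.23, and the aglaiacized response down to -2.66 with a median of -1.77. In the edgeR quasi-likelihood fit over 31237 models (mean count of 20 or more), which adds no CPM, the median log2 fold change of the members was -2.74 in naive and -1.96 in aglaiacized cells. All 507 were called lower under RocA in naive cells, where 33.9% of all tested models were called lower, and all 507 in aglaiacized cells, where 24.3% were. The rule used both contrasts, so nothing is read from these counts. Scored against single DMSO libraries, 6 members lay above -1.5 with either naive library, and 30 and 54 with aglaiacized DMSO replicates 1 and 2. Only the aglaiacized side therefore had more than a few members whose place depended on which DMSO library was used.

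A large fall in naive cells was seldom alone when it was very deep. Of the 20211 models, 2019 (9.99%) had a naive response of -1.5 or less and 617 (3.05%) an aglaiacized response of -1.5 or less, and 2.51% had both. The 507 members were 25.1% of the naive falls and 82.2% of the aglaiacized falls, which left 1512 models past the threshold in naive cells alone and 110 in aglaiacized cells alone. The lines share no library. Among models with a naive response between -2 and -1.5, 175 of 1195 (14.6%) were members. The share was 32.4% of 559 models between -2.5 and -2, 49.0% of 206 between -3 and -2.5, and 84.7% of 59 at -3 or less. The median aglaiacized response of all models in these bins, members or not, went from -0.99 through -1.28 and -1.49 to -1.98. Read the other way, 421 of 521 models (80.8%) with an aglaiacized response between -2 and -1.5 had a naive fall past the threshold, as did 86 of 96 (89.6%) at -2 or less.

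**Figure D2:**
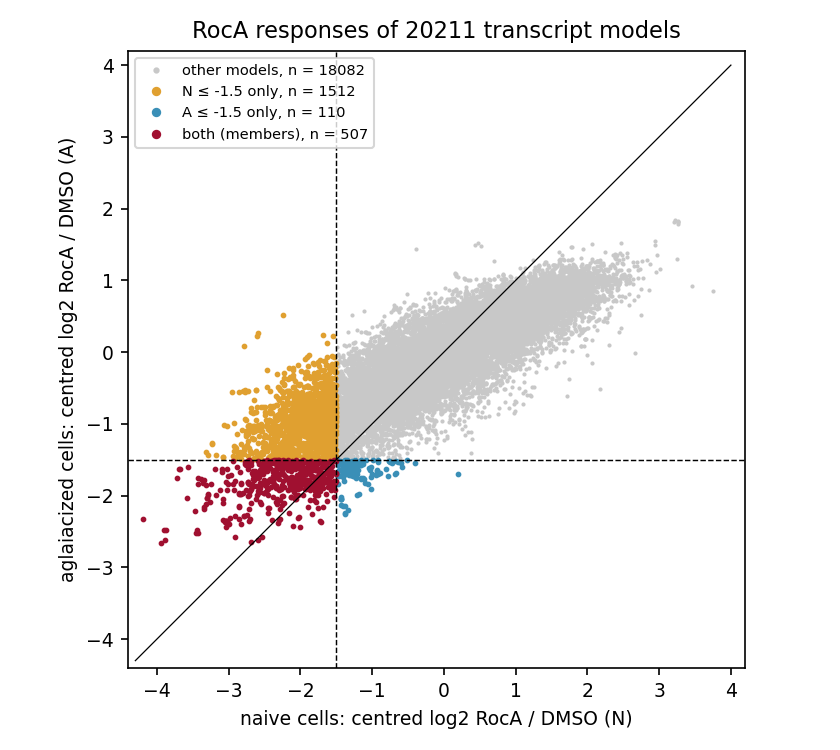
Centred log2 RocA over DMSO in aglaiacized cells (vertical) against naive cells (horizontal) for the 20211 models over the count floor of 100; dashed lines mark -1.5 and the solid line equal responses. The 507 members fill the lower left corner, 425 of them above the line of equal responses.

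The share of naive falls that persisted lay between 21.8% and 29.3% in groups of about equal size by listed length or abundance. In 5 groups of about equal size by listed length, from 16 to 229 up to 820 to 8788 length units, it was 25.5%, 26.0%, 22.8%, 22.5% and 28.1%. The listed length is a whole number deposited with each row. Its unit is not stated, and the values are of a size that proteins have. In 5 groups by DMSO level, from the lowest to the highest, the share was 21.8%, 23.2%, 29.3%, 22.4% and 27.3%. At the ends of the length scale, where there are few models, it was 36.7% (18 of 49) at a length of at least 2000 and 13.3% (2 of 15) at a length of at most 100. The bins by depth above are cut on the naive response, which the rule used, so they are a description and are not compared with these groups.

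**Figure D3:**
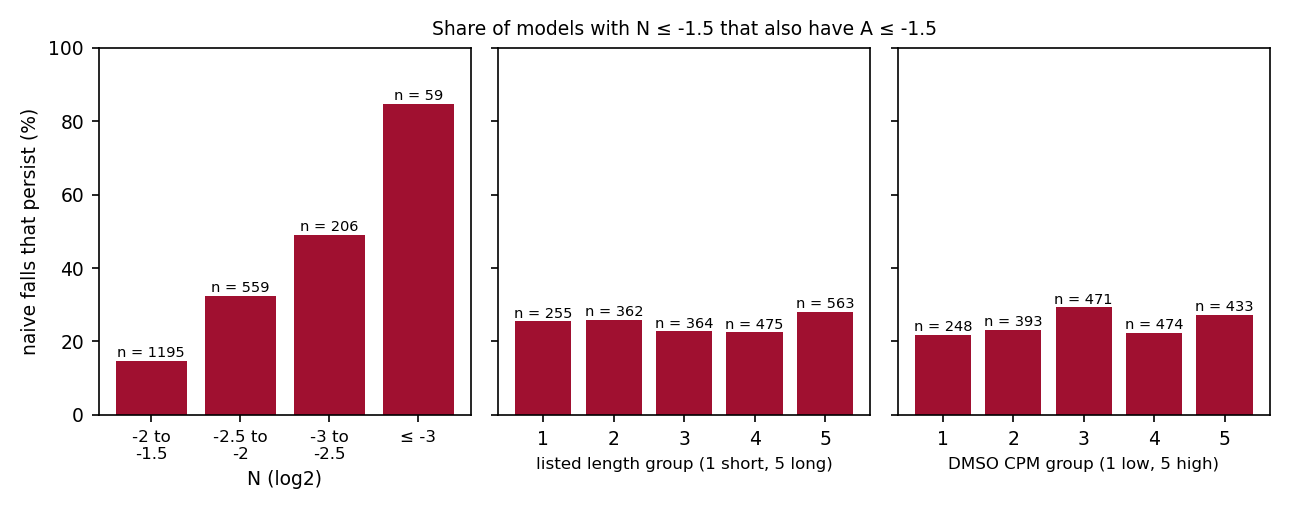
Share of models with a naive response of -1.5 or less that also have an aglaiacized response of -1.5 or less, by naive response, by listed length and by DMSO CPM; n is the number of naive falls in each bar. The share goes from 14.6% to 84.7% over the bins of naive response, a value the rule used, and lies between 21.8% and 29.3% in the groups of the other panels.

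The deepest-sequenced members have the smallest relative counting error, but the 2 printed ones lie close to the aglaiacized threshold. The member with the highest mean DMSO level was uc001vzw.3, with a listed length of 284. It stood at 533 CPM in both naive DMSO libraries and at 67.3 CPM in naive RocA (95% Poisson interval 61.8 to 73.1, counting error only). In aglaiacized cells it stood at 506 and 429 CPM in DMSO and at 137 CPM in RocA (129 to 145). Both RocA values lie far below every DMSO value, and the aglaiacized RocA value is the higher. The log2 fold change was -2.40 (SE 0.11) in naive and -1.47 (SE 0.10) in aglaiacized cells. Its responses were -2.40 and -1.52, the second just past the threshold of -1.5. The second by the same rule, uc001vzy.3 (length 297), went from 525 and 526 CPM to 65.9 CPM in naive cells and from 503 and 423 CPM to 137 CPM in aglaiacized cells. Its responses were -2.41 and -1.51. The nearly equal counts of these models in every library, in nearby rows, leave it possible that reads are shared, and they are counted with that reserve. In DMSO alone uc001vzw.3 was 0.13 lower on the log2 scale in aglaiacized cells (edgeR adjusted p = 0.181), which did not pass the threshold; without aglaiacized DMSO replicate 1 it was 0.25 lower (edgeR adjusted p = 0.000122).

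Consecutive members in file order, called a run here, often have similar counts, and 1 model per run gives a view with less repetition. The highest models of the next deepest runs fell in both lines, by different proportions. The model of the second run (length 867) stood at 450 and 427 CPM in naive DMSO and 73.1 CPM in naive RocA, while aglaiacized cells held 406 and 382 CPM in DMSO and 103 CPM with RocA. That of the fourth run (length 323) went from 316 and 300 CPM to 57.3 CPM in naive cells and from 291 and 263 CPM to 62.8 CPM in aglaiacized cells. Its log2 fold change was -1.84 (SE 0.11 to 0.12) in both lines, and the SE of the difference was 0.15. That of the sixth run (length 346) went from 280 and 289 CPM to 17.8 CPM in naive cells and from 244 and 208 CPM to 53.4 CPM in aglaiacized cells. Its log2 fold change was -3.42 (SE 0.14) in naive and -1.78 (SE 0.12) in aglaiacized cells. The fourth and sixth runs thus had similar aglaiacized falls and naive falls far apart.

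The ninth and eleventh runs had the lowest naive RocA levels of the 12 deepest runs. The ninth (length 1062) held 222 and 207 CPM in naive DMSO and 13.9 CPM in naive RocA, and aglaiacized cells held 161 and 140 CPM, then 31.5 CPM. The eleventh (length 2367) held 167 and 170 CPM and 13.3 CPM in naive cells, then 176 and 160 CPM and 26.1 CPM in aglaiacized cells. In all 12 runs both RocA values were below all 4 DMSO values, which holds for all 507 members, is nearly fixed by the rule, and holds for 49.7% of the 20211 models. The naive RocA value was below the aglaiacized one in all 12, as in 482 of the 507 members (95.1%) and 66.5% of the 20211 models; in 25 members it was not. The tenth run, a single model of length 322, held 164 and 167 CPM in naive DMSO and 198 and 199 CPM in aglaiacized DMSO. It fell to 32.2 and 56.8 CPM.

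**Figure D4:**
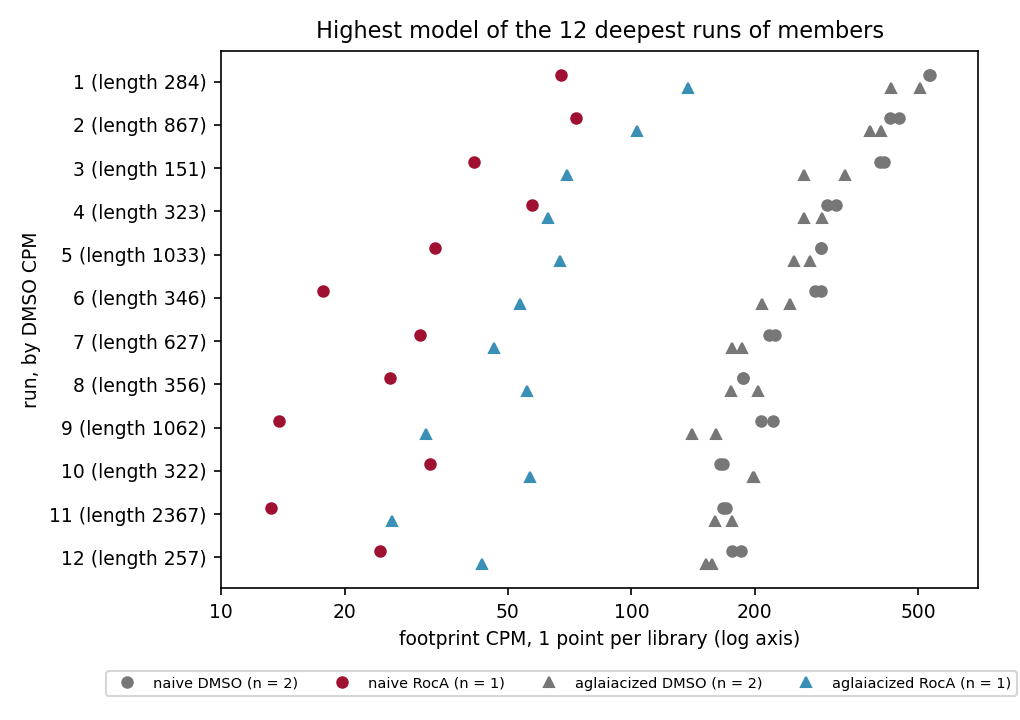
CPM in each of the 6 libraries, on a log axis, for the highest model of each of the 12 runs of members with the highest DMSO level; circles are naive and triangles aglaiacized libraries. Every RocA point lies left of all DMSO points of its row, and the naive RocA point lies left of the aglaiacized one in all 12 rows.

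Persisting past the threshold did not mean an equal fall. The aglaiacized response was the smaller fall in 425 of 507 members (83.8%) and the larger in 82. It was above the naive response in 46.2% of the 20211 models, which include rises. Its median difference from the naive response was 0.45 on the log2 scale in the members, and the median edgeR difference, with no CPM added, was 0.78. In the 1512 models that fell in naive cells alone these medians were 0.91 and 1.23. The threshold that set those models apart puts the aglaiacized response above the naive one in each of them. They therefore cannot show whether a smaller aglaiacized fall is particular to the members. In the members, the aglaiacized response differed by more than 0.5 in the direction of a smaller fall in 241 and of a larger fall in 2. It lay within 0.5 in 264. The edgeR contrast for the difference of the responses was called toward a smaller fall in aglaiacized cells in 170 members (33.5%), where 11.3% of all models were called in that direction. It was called toward a larger fall in 0 members, and at an unadjusted p under 0.05 the number was also 0. Of all models, 14.3% were called in that direction. These shares include models below the members' count floor. In a fit of only the 20211 models over that floor, 3121 were called toward a smaller fall and 4056 toward a larger one, 35.5% in all. The members called there were 170 toward a smaller fall (33.5%) and 0 toward a larger one. All models include rises under RocA, where these directions mean a larger and a smaller rise, so the shares over all models are not shares of falls. Both responses chose the members, so these counts are descriptions. DESeq2 called 97 members toward a smaller fall (19.1%) and 0 toward a larger one, against 4.76% and 7.85% of all models in these directions. It gave no adjusted p to 34 members and to 10901 of the 31237 models. These count as not called, so the DESeq2 shares of members and of all models are not like for like. The 170 called members were more abundant, with a median DMSO level of 49.2 CPM against 16.4 CPM for the other 337. The SE of the edgeR difference had a median of 0.31 in the called and 0.50 in the other members. Of the 245 runs, 192 held only members with a smaller and 38 only members with a larger aglaiacized fall.

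The deepest naive fall was that of a model of length 565. It went from 94.0 and 89.2 CPM in DMSO to 2.43 CPM in naive RocA (20 counts, 95% Poisson interval 1.49 to 3.76 CPM). In aglaiacized cells it went from 71.3 and 74.0 CPM to 11.4 CPM. Its responses were -4.19 and -2.33. The deepest aglaiacized fall was that of a model of length 331, which went from 138 CPM in both naive DMSO libraries to 5.11 CPM, and from 136 and 153 CPM to 18.4 CPM in aglaiacized cells. Its responses were -3.94 and -2.66, so it was near the bottom in both lines.

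The widest gap toward a smaller aglaiacized fall, 2.06, belonged to a model of length 138 that joins 7 deposited rows. It went from 99.5 and 94.3 CPM to 4.14 CPM in naive cells and from 74.2 and 72.1 CPM to 19.4 CPM in aglaiacized cells. The widest gap the other way, -0.64, belonged to a model of length 747 with few counts. It went from 10.6 and 9.02 CPM to 1.22 CPM (10 counts) in naive cells, and from 11.6 and 11.7 CPM to 1.08 CPM (9 counts) in aglaiacized cells. The 2 RocA values of that model overlap within counting error (0.583 to 2.24 and 0.495 to 2.05 CPM), and the SE of its difference was 0.68.

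Without drug, the lines differed in the members about as often as in all tested models, but less often than in models over the members' count floor. This contrast, aglaiacized over naive in DMSO, was not used by the rule, although it rests on the same DMSO libraries. It was called in 172 of 507 members (33.9%), against 35.6% of all tested models. Of these, 79 were higher in aglaiacized cells (15.6%, against 19.0% of all) and 93 were lower (18.3%, against 16.6%). Against all tested models the shares are near the background and are no result about the members. In a fit of only the 20211 models over the members' count floor, 178 members were called (35.1%), against 43.1% of those models. With total counts and no scaling factor, 68 members were higher (13.4%, against 15% of all) and 130 lower (25.6%, against 21.6%). DESeq2 called 60 of the 507 (11.8%, against 11.5% of all). It gave no adjusted p to 34 members and to 10901 of the 31237 models. These count as not called, so the DESeq2 shares cannot show an equal frequency. With edgeR, the share called moved in the members and in all tested models when 1 DMSO library was left out. Which of these shares was the higher depended on the library. The median log2 fold change of the members then lay between -0.11 and -0.02. With all 6 libraries it was -0.05, against 0.02 over the 20211 models. It was -0.15 in the 1512 models that fell in naive cells alone and 0.20 in the 110 that fell in aglaiacized cells alone. A high DMSO level in a line helps a model past that line's threshold, so the order of these medians is partly set by the choice of models.

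A difference of at least 2-fold between the lines in DMSO was called in 4 members (0.789%), against 2.38% of all tested models, and all 4 were higher in aglaiacized cells. The largest was a model of length 393 that joins 2 rows. It held 11.6 and 9.82 CPM in naive DMSO and 48.6 and 42.6 CPM in aglaiacized DMSO, with no overlap between the lines. The log2 fold change was 2.14 (SE 0.12, edgeR adjusted p = 8.25e-30), the highest of all 20211 models. Leaving out each DMSO library gave 2.02 to 2.28. Under RocA it stood at 1.22 CPM in naive cells (10 counts) and 7.21 CPM in aglaiacized cells (60 counts), so that the line difference remained visible beneath the fall. Its responses were -1.84 and -2.26. The other 3 belong to 1 run, with lengths of 912, 1695 and 1637 and log2 fold changes of 1.05, 1.08 and 1.10. The highest of these held 14.3 and 13.5 CPM in naive DMSO and 28.5 and 27.7 CPM in aglaiacized DMSO, then 0.730 and 3.13 CPM in RocA.

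The member with the lowest line difference in DMSO had a length of 520. It held 17.0 and 15.9 CPM in naive and 9.98 and 8.13 CPM in aglaiacized DMSO, with -0.81 as the log2 fold change (SE 0.13, edgeR adjusted p = 7.44e-07). A far more abundant pair of models, of lengths 2561 and 2545 in 1 run, was close to it. The longer held 194 and 202 CPM in naive DMSO and 114 and 104 CPM in aglaiacized DMSO, with -0.80 as the log2 fold change (SE 0.08, edgeR adjusted p = 1.48e-13). It fell to 8.03 CPM in naive and 15.6 CPM in aglaiacized RocA, with responses of -3.90 and -2.48. Members thus reached their low RocA levels from DMSO levels that were higher in either line.

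**Figure D5:**
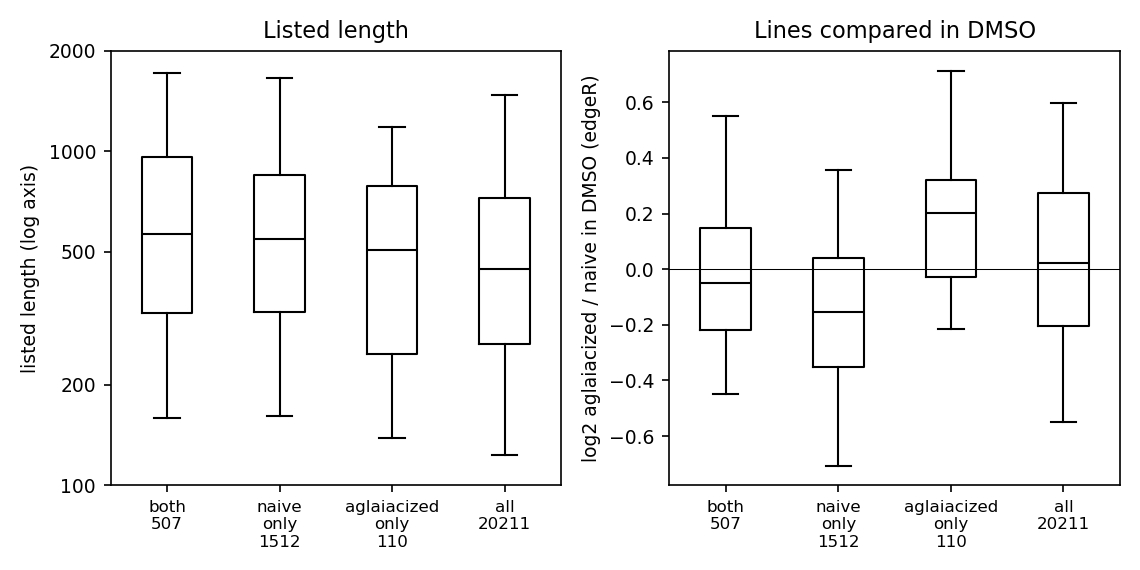
Listed length (left, log axis) and edgeR log2 fold change of aglaiacized over naive cells in DMSO (right) for the members, the models past -1.5 in 1 line only and all 20211 models. Boxes are quartiles with the median and whiskers reach the 5th and 95th percentiles; the median lengths are 565, 545, 508 and 445 and the median fold changes -0.05, -0.15, 0.20 and 0.02.

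The rule did not use listed length, and long models were more frequent among the members than among all models. The median length was 565 (quartiles 328 and 963), against 445 (265 and 724) over the 20211 models. Members were 1.60%, 2.32%, 2.06%, 2.65% and 3.91% of the 5 length groups, from the shortest to the longest. With 1 model per block of nearly equal counts in consecutive rows, the medians were 493 and 398, and the shares 1.62%, 2.17%, 2.31%, 2.82% and 3.59%. The 1512 models that fell in naive cells alone had a median of 545, close to the members. Falls in naive cells alone were thus also longer than all models at the median. Models are not replicates, and no test was made.

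Length and abundance were not independent of each other. In the 4 lower groups of DMSO level the median length of the members was 670, 536, 652 and 591, against 414, 453, 477 and 474 for all models of the same group. In the highest group it was 361 against 410, so the order turned there. Members were 1.34%, 2.25%, 3.41%, 2.62% and 2.92% of the 5 abundance groups. The floor on mean count acts hardest on models that lose counts under RocA, so the lowest group is partly set by the rule. Per length, the DMSO level of the members had a median of 3.88 CPM per 100 length units, against 4.21 over all models and 3.79 in the naive-only falls. It ran from 0.491 to 237 CPM per 100 length units. The highest was a model of length 130 that went from 359 and 357 CPM to 37.5 CPM in naive cells and from 287 and 227 CPM to 62.9 CPM in aglaiacized cells.

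At the ends of the length scale the members were unevenly spread. Of 445 models with a length of at least 2000, 18 (4.04%) were members, and of 520 models with a length of at most 100, 2 (0.385%) were. The 18 long members belong to 11 runs, 1 of which holds 5 of them, and had a median of 86.3 CPM in DMSO and median responses of -2.69 and -1.93. With 1 model per run the medians were 40.6 CPM, -2.45 and -1.91. The longest member (length 5528) went from 31.1 and 34.7 CPM to 6.45 CPM in naive cells and from 35.8 and 42.7 CPM to 8.30 CPM in aglaiacized cells, with responses of -1.62 and -1.87. A member of length 2026 also had a fall of like size in both lines, from 86.9 and 83.7 CPM to 10.1 CPM and from 105 and 121 CPM to 18.0 CPM, with responses of -2.39 and -2.34. The 2 short members, of lengths 85 and 100, rest on 3 counts each in naive RocA and on 9 and 5 counts in aglaiacized RocA.

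Numbers of members overstate the number of separate transcripts. The 507 members stand for 604 deposited rows and fall into 354 blocks whose counts lie within 20% of the next row's in every library. They form 245 runs: 123 members stand alone, and 384 lie in 122 runs of 2 or more. The largest run has 11 models with lengths of 416 to 1311 and near-uniform responses, -1.94 to -1.78 in naive and -1.996 to -1.70 in aglaiacized cells. A run of 8 models (lengths 601 to 1410) lay deeper, at -3.08 to -2.48 and -2.38 to -1.95. With 1 model per run the median responses were -2.19 and -1.73, little different from -2.23 and -1.77 over all members. The models next to a run were often unlike it. Of 232 neighbouring models over the count floor that were not members, 63 had a naive response of -1.5 or less and 72 had both responses at or above 0, and their median responses were -0.58 and -0.35.

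The threshold cut through a continuum. The member nearest to it by naive response, at -1.503, had 24.1 and 26.2 CPM in naive DMSO and 5.23 CPM in naive RocA, and an aglaiacized response of -1.69. A model just outside, with a naive response of -1.49, had 33.4 and 34.8 CPM in naive DMSO and 7.42 CPM in naive RocA, and an aglaiacized response of -1.72. By aglaiacized response, the nearest member and the nearest non-member both lay at the threshold to 2 decimals. The first had 372 and 327 CPM in aglaiacized DMSO and 104 CPM in RocA, the second 9.23 and 8.30 CPM and 1.92 CPM. The member with the lowest DMSO level, of length 1193, held 5.85 and 5.23 CPM in naive DMSO and 4 counts in naive RocA, 6.84 and 8.65 CPM in aglaiacized DMSO and 13 counts in aglaiacized RocA.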

How the data were processed

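The authors deposited raw footprint counts, 1 per transcript row, with a listed length, which is a number of another kind (unit not stated). The submitters' processing notes name TopHat2 2.0.9, Bowtie2 2.1.0, CASAVA 1.8 and build hg19, with no roles; the counting program is not given in the sources used here. Of 82960 rows, 19269 had no length and 0 counts and stayed out; 50582 rows with a length and a count became 38543 models. Differences were tested with edgeR 4.0.16 (quasi-likelihood, TMM factors) in R 4.3.3, with 4 groups over 6 libraries, 2 residual degrees of freedom and two-sided Benjamini-Hochberg p-values at 0.05. Each RocA group has 1 library, which is assumed to vary like the DMSO libraries, and p-values cover no more than the spread among these libraries, which may be technical. SE is the size of log2 change over the square root of F. CPM values were computed here from totals over all models, without TMM. DESeq2 1.42.0, other scalings, filters and left-out replicates were alternatives. Tested on simulated data with 31237 models, edgeR recovered 63.5% of 2-fold and 92% of 4-fold changes in naive RocA, and 85% and 100% between the lines in DMSO. False calls numbered 16 and 5 in naive RocA, and 8 and 14 between the lines. Each simulation changed 200 models, far fewer than were called in these data, and gave the RocA libraries the spread fitted here.

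The members, groups and tests were chosen with earlier results of these data known. By the rule for named models, which takes the 2 members from different blocks with the highest mean CPM in DMSO, 2 identifiers are printed; other members are given by their place in the set. Runs of members and the choice of 1 model per run were added after the data were examined. The deviations of same-numbered DMSO libraries were unrelated (r = -0.05 over models, which are not replicates), so the numbers were not taken as pairs.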

Additional observations from a re-analysis of the deposited data

Results flagged for a closer look

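The edgeR contrast for the difference of the RocA responses was called in 170 of 507 members (33.5%), each time toward a smaller fall in aglaiacized cells, where 11.3% of all tested models were called in that direction and 14.3% in the other. In a fit of only the 20211 models over the members' count floor, 170 members were again called. Of those 20211 models, 3121 were called in the same direction and 4056 in the other. All tested models include rises under RocA, where these directions mean a larger and a smaller rise. DESeq2 called 97 members (19.1%, against 4.76% of all), with models that got no adjusted p counted as not called. Both responses were used to choose the members, so these counts describe the chosen models and are no independent test of a difference between the lines. For the printed models, the difference of the responses, aglaiacized minus naive, was 0.93 on the log2 scale for uc001vzw.3 (SE 0.15) and 0.95 for uc001vzy.3 (SE 0.15). The spread comes from DMSO libraries alone, since each line has 1 RocA library, and variation between RocA libraries was not tested.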

How the results depend on the processing

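All 507 members were called lower under RocA in both lines by every edgeR alternative that tested them and by DESeq2; with 1 model per block, 349 were tested and called. The number of members depended on the rule's own settings: 805 with a pseudocount of 0.1, 140 with 5, 233 with a count floor of 500 and 1055 with total-count CPM and no centring. It was 492 to 520 without each DMSO replicate in turn, and 446 to 497 of the 507 were then kept. With 1 model per run, 245 remained. The share of naive falls that persist was 29.6% and 19.2% with the 2 pseudocounts, 20.9% and 28.4% with count floors of 20 and 500, 22.7% with TMM-scaled CPM and no centring, and 27.3% with libraries thinned to 1 total; thinning kept 314 of the 507. The median DMSO level was 70.0 CPM with a count floor of 500, 17.3 CPM with TMM-scaled CPM, and 20.3 to 23.4 CPM without each DMSO replicate. The difference of the responses was called in 97 members by DESeq2, which gave 34 members and 10901 of the 31237 tested models no adjusted p. The lines in DMSO differed in 60 members by DESeq2, in 112 of 349 with 1 model per block, and in 77 to 250 without each DMSO replicate in turn. The share called of all tested models also moved when a DMSO replicate was left out. These counts alone therefore show nothing particular to the members. With 1 model per block, 32.1% of the members and 33.8% of all tested models were called between the lines. With the replicate block, 161 members (31.8%) were called for the difference of responses, against 24.5% of all tested models in either direction. Between the lines in DMSO, 167 members (32.9%) were called with the block, against 34.0% of all. The block changed no direction. Median length was 460 with a count floor of 500, 593 with TMM-scaled CPM, 493 with 1 model per block, 538 with 1 model per run and 573.5 to 582 without each DMSO replicate; it was not computed under the other settings of the rule. The causes were not tested. Depth limits the RocA side: 134 members had at most 10 counts in naive RocA.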
